A study of Mus musculus with 4 samples.

Results

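The genes described here are 10 transcription factor genes of the epidermal lineage, Trp63, Klf4, Klf5, Grhl1, Grhl3, Ovol1, Zfp750, Gata3, Cebpa and Tfap2a. They were taken by symbol from the deposited table, which held all 10 among its 22222 genes. The libraries came from mouse keratoacanthomas, keratinocyte tumours of the skin that may regress on their own, induced over 20 weeks with the carcinogen DMBA. The on-DMBA group was 2 mice kept on DMBA (0 weeks after it), and the 1-week group was 2 other mice kept without DMBA for 1 week. Cells of all 4 mice had been sorted for Tomato and P-cadherin and are labelled as epithelial (Epi). The sources used here do not give strain, age or the driver of the Tomato label. Levels are in scaled CPM, in which a gene’s reads are divided by a rescaled library total, and values stand in the order replicate 1, replicate 2.

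The epidermis renews itself from a basal layer marked by the keratins Krt14 and Krt5, whose cells leave the cell cycle as they move outward and build the barrier. The p53 relative p63, encoded by Trp63, is required for stratified epithelia and drives the basal programme, while Klf4, Grhl3, Zfp750 and Ovol1 act in the change to differentiation. Several of these factors also work in other cells: Gata3 in T and innate lymphoid cells, Cebpa in myeloid cells and adipocytes, and Klf4 in monocytes, fibroblasts and vessels.

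The libraries differed in epithelial content before any comparison of the groups. Krt14, the denominator used below, had 224462 and 1127 reads on DMBA and 16917 and 13627 reads at 1 week, in libraries of 5551937 to 9678682 reads. All 16 keratinocyte markers were highest in on-DMBA replicate 1 and lowest in on-DMBA replicate 2, and their summed level was 73926 and 715 in the on-DMBA mice and 6526 and 5141 in the 1-week mice. Against the epithelial label, Col3a1, a collagen gene of fibroblasts, was at 68.5 and 20658 in the on-DMBA mice and 20761 and 27662 in the 1-week mice. The 9 fibroblast markers summed to 248 and 43477 in the on-DMBA mice and 49222 and 51847 in the 1-week mice, and the 11 myeloid markers to 30.4 and 22353 in the on-DMBA mice and 9146 and 14669 in the 1-week mice. The comparison of the groups is therefore also given without each on-DMBA library. In bulk RNA, fewer cells of a type and less RNA per cell cannot be told apart.

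In scaled CPM, no difference between the groups passed the test for any of the 10 factors with all 4 libraries. Limma called 0 of the 10 at an adjusted p below 0.05, against 0% of the 15419 genes tested. Before adjustment 0 of the 10 were below 0.05 in limma, where 352 of the 15419 genes were higher and 30 lower. On whole reads edgeR (0% of genes called) and DESeq2 (0.104% called higher and 0.0195% lower) also called 0. Before adjustment edgeR had 0 of the 10 below 0.05, where 229 of the 15419 genes were higher and 42 lower. DESeq2 had 3, Trp63, Klf5 and Grhl1, all lower at 1 week, where 386 genes were higher and 178 lower. A limma fit with the replicate number as a block called 0 of the 10 as well, against 1.85% of genes higher and 0.0195% lower, 1.87% in all. The groups overlapped at all 10 members, while they did not overlap at 23.2% of genes tested. For 9 of the 10, on-DMBA replicate 1 held the highest level, which was so for 41.7% of all genes tested. The difference between the on-DMBA libraries exceeded the group difference for all 10.

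**Figure D1:**
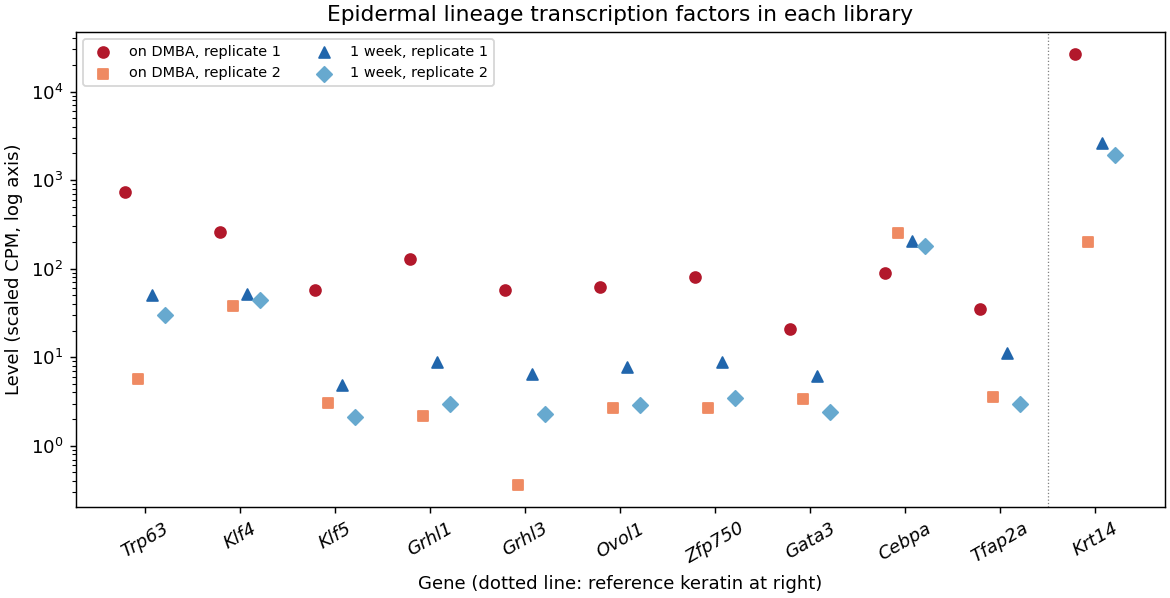
Level of each factor and of Krt14 (scaled CPM, log axis) in the 4 libraries; each point is 1 library. For 9 factors on-DMBA replicate 1 lies above the other libraries, and for Cebpa it lies lowest, at 89.8.

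Trp63, the master regulator gene of stratified epithelium, had the widest gap between the on-DMBA libraries of the 10 factors on the log2(scaled CPM + 0.5) scale, 6.88. It was at 734 and 5.74 in the on-DMBA mice and 50.9 and 29.7 in the 1-week mice. The 1-week libraries lay between the on-DMBA libraries, which differed from each other 128-fold. The log2 difference, 1 week minus on DMBA, was -0.78 (SE 2.19, limma adjusted p = 1). In the models of whole reads it was -3.08 in edgeR (adjusted p = 1) and -3.12 in DESeq2 (adjusted p = 1). Counting error was small beside this: the 32 reads in on-DMBA replicate 2 gave a 95% exact Poisson interval of 3.93 to 8.11 scaled CPM, and the other libraries had 6180, 326 and 208 reads.

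Relative to Krt14, Trp63 stayed within 1.86-fold, although Krt14 itself differed 132-fold between the on-DMBA libraries. It had 27.5 and 28.4 reads per 1000 Krt14 reads on DMBA and 19.3 and 15.3 at 1 week. Both 1-week ratios lay below both on-DMBA ratios, and the means, 28.0 and 17.3, differed 1.62-fold. The 95% binomial counting interval in on-DMBA replicate 2 was 19.3 to 40.3, which reached that of 1-week replicate 1 (17.2 to 21.5), whereas the interval in on-DMBA replicate 1 was 26.8 to 28.2. Limma on the ratios gave a log2 difference of -0.75 (SE 4.56, adjusted p = 1). This SE came from the variance shared across genes, all over the same Krt14 values, and is not the spread of Trp63 itself. Over the 10 factors it ran from 4.56 to 4.69. Of 15418 genes, 0 had an unadjusted p under 0.05 in this limma fit, so it cannot decide on the Trp63 ratio. An exact permutation test of 2 against 2 libraries cannot give a two-sided p under 0.333. Of the 15417 other genes tested, 23 kept a narrower range over Krt14 than Trp63 (0.99 on the log2 scale), and the median gene had a range of 6.99.

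The lower Trp63 ratio at 1 week was seen over 3 of 5 denominators, Krt14 included. Over Cdh3, the P-cadherin gene and so that of the sort antigen, the ratios were 2255 and 1778 per 1000 Cdh3 reads on DMBA and 1190 and 977 at 1 week, again without overlap. Over Epcam they were 5875 and 4000 in the on-DMBA mice and 1918 and 258 in the 1-week mice, also without overlap. Over Krt5 the Trp63 ratios were 62.6 and 104 in the on-DMBA mice and 94.5 and 48.4 in the 1-week mice, with overlap. Over the integrin Itga6 they were 752 and 27.9 in the on-DMBA mice and 189 and 102 in the 1-week mice, also with overlap. Itga6 did not keep to Krt14, at 36.6 and 1018 reads per 1000 Krt14 reads on DMBA and 102 and 150 at 1 week.

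The Grainyhead-like factors Grhl1, tied to desmosomal gene expression, and Grhl3, tied to barrier formation, were the factors nearest to Trp63 in profile. Grhl3 was at 56.9 and 0.36 in the on-DMBA mice and 6.41 and 2.28 in the 1-week mice. Only 2 reads stood behind the value in on-DMBA replicate 2, so the 158-fold gap between the on-DMBA libraries had a counting interval of 43.6-fold to 1312-fold. Grhl1 was at 128 and 2.15 in the on-DMBA mice and 8.91 and 2.995 in the 1-week mice, the latter in 57 and 21 reads. Neither group difference passed: the log2 difference was -0.68 (SE 2.02) for Grhl3 and -1.69 (SE 1.88) for Grhl1, both at a limma adjusted p of 1. In edgeR it was -2.59 for Grhl3 and -3.32 for Grhl1, again at an adjusted p of 1.

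Over Krt14 the Grhl genes differed in whether the groups overlapped. Grhl3 had 2.13 and 1.77 reads per 1000 Krt14 reads on DMBA and 2.42 and 1.17 at 1 week. Its groups overlapped, and its 4 ratios lay within 2.06-fold. Grhl1 had 4.82 and 10.6 in the on-DMBA mice and 3.37 and 1.54 in the 1-week mice, so both 1-week ratios were below both on-DMBA ratios. The counting interval of Grhl1 in on-DMBA replicate 2, from 12 reads, was 5.49 to 18.7. That of Grhl3 in the same library, from 2 reads, was 0.21 to 6.43, so the intervals of these genes overlapped.

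To show the regulatory sequence of factors with unlike profiles, the 250 bases before the annotated start are given for Grhl3, Gata3 and Cebpa. Grhl3 went with Krt14, though with only 2 reads in on-DMBA replicate 2. Gata3 kept to Krt14 less, and Cebpa went the other way. The sequences are RefSeq's on GRCm38.p6, on the gene's strand, whereas the submitters' processing notes name mm9. Grhl3 lies at chr4:135573633-135573882 on the minus strand, Gata3 at chr2:9878601-9878850 on the minus strand and Cebpa at chr7:35119043-35119292 on the plus strand. Capitals mark matches on either strand to recognition motifs of the families studied.
Grhl3: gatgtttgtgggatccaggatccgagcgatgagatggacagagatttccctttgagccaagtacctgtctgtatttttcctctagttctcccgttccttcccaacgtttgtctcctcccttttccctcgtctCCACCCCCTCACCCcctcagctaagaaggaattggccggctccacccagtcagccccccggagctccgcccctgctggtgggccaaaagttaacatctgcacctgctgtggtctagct
Gata3: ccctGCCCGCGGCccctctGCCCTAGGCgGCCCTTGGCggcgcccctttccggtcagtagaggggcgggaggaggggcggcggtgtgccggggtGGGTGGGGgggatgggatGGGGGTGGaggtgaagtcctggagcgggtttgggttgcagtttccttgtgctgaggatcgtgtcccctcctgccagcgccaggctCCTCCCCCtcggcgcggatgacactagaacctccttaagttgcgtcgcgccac
Cebpa: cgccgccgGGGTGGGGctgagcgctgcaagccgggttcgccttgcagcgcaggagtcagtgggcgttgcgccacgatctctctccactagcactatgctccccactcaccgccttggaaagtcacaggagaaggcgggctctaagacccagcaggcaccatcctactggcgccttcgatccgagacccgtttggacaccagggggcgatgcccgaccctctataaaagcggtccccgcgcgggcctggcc
The motif searched for KLF factors was CCNCNCCC. That for AP-2 was GCCNNNGGC. That for Grainyhead-like factors was AACCGGTT. For Gata factors it was AGATAA. The C/EBP motif was TTGCNNAA, and the p53 family motif was searched too. The Gata3 window held 3 AP-2 and 3 KLF matches, the Grhl3 window 2 KLF matches and the Cebpa window 1 KLF match, of which the pair in Grhl3 overlap each other. Of 32851 RefSeq promoter windows of this length, 45.9% held a KLF match, 13.7% AP-2, 9.99% GATA, 0.116% GRHL, 9.56% C/EBP and 7.13% the p53 family motif. The GC content was 70.0% in the Gata3 window, 56.0% in the Grhl3 window and 66.4% in the Cebpa window, against a median of 52.4% over all windows. The table held windows for 6 of the 10 factors, and a match is a description of letters only.

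The differentiation factors Ovol1, a zinc finger factor of progenitors leaving the cell cycle, and Zfp750, a p63 target that promotes terminal differentiation, had almost the same profile. Ovol1 was at 62.0 and 2.69 in the on-DMBA mice and 7.81 and 2.85 in the 1-week mice. Zfp750 was at 80.6 and 2.69 in the on-DMBA mice and 8.91 and 3.42 in the 1-week mice. In both, on-DMBA replicate 2 and 1-week replicate 2 were close, and on-DMBA replicate 1 was at least 7.93 times the higher 1-week library. The log2 difference was -1.42 (SE 1.52) for Ovol1 and -1.40 (SE 1.61) for Zfp750, neither passing in limma (adjusted p = 1). Zfp750 overlaps the antisense gene Tbcd in the GENCODE M21 annotation, and as the sources used here do not give the strand setting of the counting, reads of the 2 genes cannot be told apart.

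Over Krt14, Ovol1 had 2.33 and 13.3 reads per 1000 Krt14 reads on DMBA and 2.96 and 1.47 at 1 week. Zfp750 had 3.02 and 13.3 in the on-DMBA mice and 3.37 and 1.76 in the 1-week mice. On-DMBA replicate 2 was highest for both, from 15 reads each, and the groups overlapped.

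The Krüppel-like factors Klf5, tied to proliferation of basal cells, and Klf4, needed for barrier formation, differed from each other in the libraries poor in keratinocyte transcripts. Klf5 was at 57.6 and 3.05 in the on-DMBA mice and 4.84 and 2.14 in the 1-week mice, with 15 to 31 reads outside on-DMBA replicate 1. Its lowest library was 1-week replicate 2. Klf4 was at 258 and 37.7 in the on-DMBA mice and 52.0 and 44.8 in the 1-week mice. Without on-DMBA replicate 1, its levels thus lay within a narrow band. The log2 difference was -1.94 (SE 1.43) for Klf5 and -1.03 (SE 0.97) for Klf4, and neither passed in limma (adjusted p = 1).

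The ratio to Krt14 separated these genes further. Klf5 had 2.16 and 15.1 reads per 1000 Krt14 reads on DMBA and 1.83 and 1.10 at 1 week, without overlap of the groups. The counting interval of Klf5 in on-DMBA replicate 1 (1.97 to 2.36) lay within that in 1-week replicate 1 (1.24 to 2.60, from 31 reads). Counting error alone could thus undo this separation. Klf4 had 9.66 and 186 in the on-DMBA mice and 19.7 and 23.0 in the 1-week mice. On-DMBA replicate 2, the library with the fewest keratinocyte transcripts, had 19.3 times the Klf4 ratio of on-DMBA replicate 1. Over Itga6, Klf4 had 264 and 183 reads per 1000 Itga6 reads on DMBA and 193 and 153 at 1 week. This spread of 1.72-fold was the smallest of the 10 factors over Itga6, which itself spanned 27.8-fold over Krt14.

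Gata3, a zinc finger factor of epidermis, hair follicle and T cells, and Tfap2a, which encodes AP-2 alpha of the early epidermis, had smaller gaps between the on-DMBA libraries than Trp63. Gata3 was at 20.8 and 3.41 in the on-DMBA mice and 6.10 and 2.42 in the 1-week mice. Tfap2a was at 35.1 and 3.59 in the on-DMBA mice and 11.3 and 2.995 in the 1-week mice. For both, 1-week replicate 2 was lowest and on-DMBA replicate 2 was close to it. The log2 difference was -1.05 (SE 1.06) for Gata3 and -0.91 (SE 1.27) for Tfap2a, neither passing in limma (adjusted p = 1).

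Over Krt14, Gata3 had 0.78 and 16.9 reads per 1000 Krt14 reads on DMBA and 2.31 and 1.25 at 1 week, and Tfap2a had 1.32 and 17.7 in the on-DMBA mice and 4.26 and 1.54 in the 1-week mice. The groups of both overlapped, since on-DMBA replicate 1 was lowest and on-DMBA replicate 2 highest. The 12 T and innate lymphoid markers summed to 4.51 and 45.9 in the on-DMBA mice and 88.1 and 149 in the 1-week mice. Of the 12, 11 were lowest in on-DMBA replicate 1 and none was at 0 in it. Most of the 1-week sums was Cd4 and Il7r. Cd4 was at 0.47 and 27.3 in the on-DMBA mice and 52.4 and 59.2 in the 1-week mice. Il7r was at 0.24 and 5.38 in the former and 21.9 and 60.0 in the latter. Cd3e, the defining T cell gene of that list, was at 0.12 and 0.18 in the on-DMBA mice and 0.31 and 0.57 in the 1-week mice, at most 4 reads. The part of these cells in the Gata3 ratio was not tested. Gata3 also overlaps the antisense gene 4930412O13Rik, with the same limit as for Zfp750, and 9230102O04Rik on its own strand, whose shared reads strand would not separate.

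Cebpa, which encodes C/EBP alpha, a factor of keratinocyte differentiation and of myeloid cells, was the member with the opposite profile. It was at 89.8 and 254 in the on-DMBA mice and 207 and 181 in the 1-week mice. On-DMBA replicate 1 was lowest, on-DMBA replicate 2 highest, and the groups overlapped. The log2 difference was 0.36 (SE 0.68, limma adjusted p = 1). Over Krt14 it had 3.37 and 1255 reads per 1000 Krt14 reads on DMBA and 78.4 and 93.3 at 1 week, a spread of 373-fold. All 11 myeloid markers were likewise lowest in on-DMBA replicate 1, where none was at 0, and their sum there was 30.4. Lyz2, a lysozyme gene of myeloid cells, was at 1.19 and 8839 in the on-DMBA mice and 3112 and 6663 in the 1-week mice, and the leukocyte gene Ptprc was at 2.49 and 632 in the former and 393 and 850.2 in the latter. Of the 5 granulocyte markers, 4 were lowest there, and they summed to 61.7 and 333 in the on-DMBA mice and 127 and 148 in the 1-week mice. The part of myeloid cells in the Cebpa values was not tested.

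**Figure D2:**
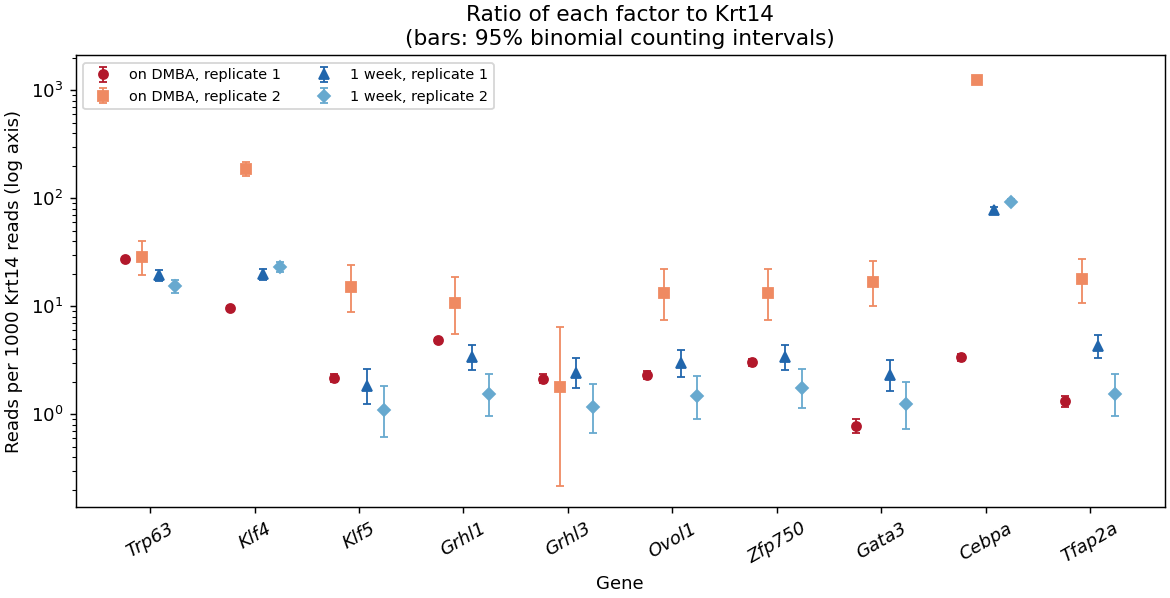
Reads of each factor per 1000 Krt14 reads (log axis) in the 4 libraries, with 95% binomial counting intervals. Trp63 and Grhl3 stay within 1.86-fold and 2.06-fold, while on-DMBA replicate 2 stands highest for the other factors, up to 1255 for Cebpa. The Grhl3 ratio in that library rests on 2 reads.

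Ordered by how far on-DMBA replicate 2 exceeded on-DMBA replicate 1 over Krt14, the factors formed a series. The ratio of ratios was 0.83 for Grhl3, 1.03 for Trp63, 2.21 for Grhl1, 4.40 for Zfp750, 5.72 for Ovol1, 6.98 for Klf5, 13.5 for Tfap2a, 19.3 for Klf4, 21.6 for Gata3 and 373 for Cebpa. Neighbours such as Zfp750, Ovol1 and Klf5 had overlapping counting intervals in on-DMBA replicate 2 (7.42 to 22.0 for Zfp750 and Ovol1, 8.76 to 24.3 for Klf5). The place of Grhl3 rested on 2 reads in that library, with an interval of 0.21 to 6.43. Between the 1-week libraries the ratios stayed closer, from 0.84 for Cebpa to 2.76 for Tfap2a, as replicate 1 over replicate 2.

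The groups did not overlap over Krt14 at 3 of the 10 factors, Trp63, Klf5 and Grhl1, all lower at 1 week. Among 15418 genes the groups were apart and lower at 0.636% and apart and higher at 0.305%. In other epithelial lists, 3 of 16 keratinocyte markers, 4 of 14 epithelial identity genes and 5 of 14 barrier genes were lower without overlap. Higher without overlap were 1, 1 and 0 of them. Of 20 genes known to depend on p63, 3 were lower and 2 higher without overlap. Krt14 is in both the p63 and the keratinocyte list, and its ratio to itself is fixed, so it could not be counted. Perp and Dsc3 were among the lower genes of both lists. Of 28 other epidermal transcription factors, 2 were lower and 0 higher. Over Cdh3 the groups were apart and lower at 1 week for 5 factors and over Epcam for 7, but over Krt5 and over Itga6 for 0. The share of all genes was counted only over Krt14, so whether these counts are unusual cannot be said. Of the denominators, Epcam was itself higher over Krt14 at 1 week without overlap, and Itga6 spanned 27.8-fold over Krt14. Limma on the ratios to Krt14 called 0 of the 10 (0 at an unadjusted p under 0.05) against 0% of genes, and edgeR with Krt14 reads as library size, chosen after the data were seen, also called 0 (0 unadjusted).

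**Figure D3:**
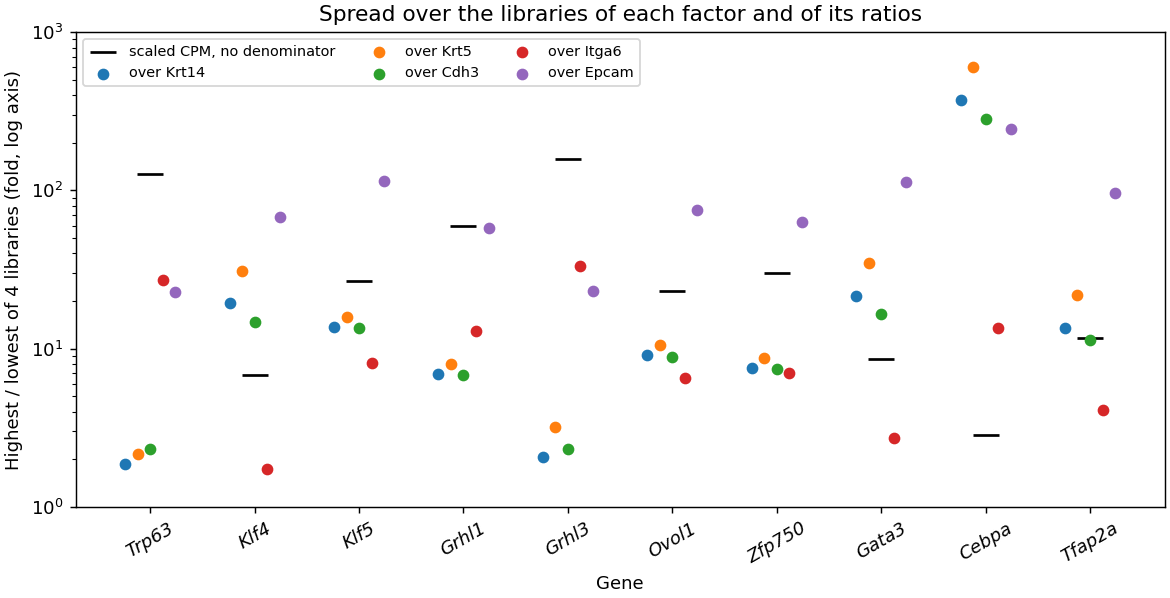
Highest over lowest of the 4 libraries (fold, log axis) for the level of each factor (black bars) and for its ratio to each of 5 epithelial genes (points). Trp63 and Grhl3 go from 128-fold and 158-fold to 1.86-fold and 2.06-fold over Krt14, Grhl3 with 2 reads in on-DMBA replicate 2. Klf4 narrows to 1.72-fold over Itga6, which itself spans 27.8-fold over Krt14. Cebpa widens over every denominator.

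Each member's direction in scaled CPM rested on the on-DMBA libraries. Without on-DMBA replicate 2, limma called 9 of the 10 factors lower at 1 week, all but Cebpa, where 10% of genes tested were called lower and 24.4% either way. The log2 differences of the 9 then ran from -4.49 for Grhl1 to -2.28 for Gata3. Without on-DMBA replicate 1, the sign of all 10 turned. Only Trp63 was then called, higher at 1 week with a log2 difference of 2.66 (SE 0.54, limma adjusted p = 0.000119), where 2.35% of genes were called higher, 0.999% lower and 3.35% either way. Over Krt14, 8 factors were called lower without on-DMBA replicate 1, where 95% of all genes were, and Cebpa alone was called higher without on-DMBA replicate 2, where 86.5% of genes were. In these fits the lone on-DMBA library was assumed to vary like the 1-week libraries. Trp63 over Krt14 was called in neither of them and kept a log2 difference of -0.83 and -0.67.

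**Figure D4:**
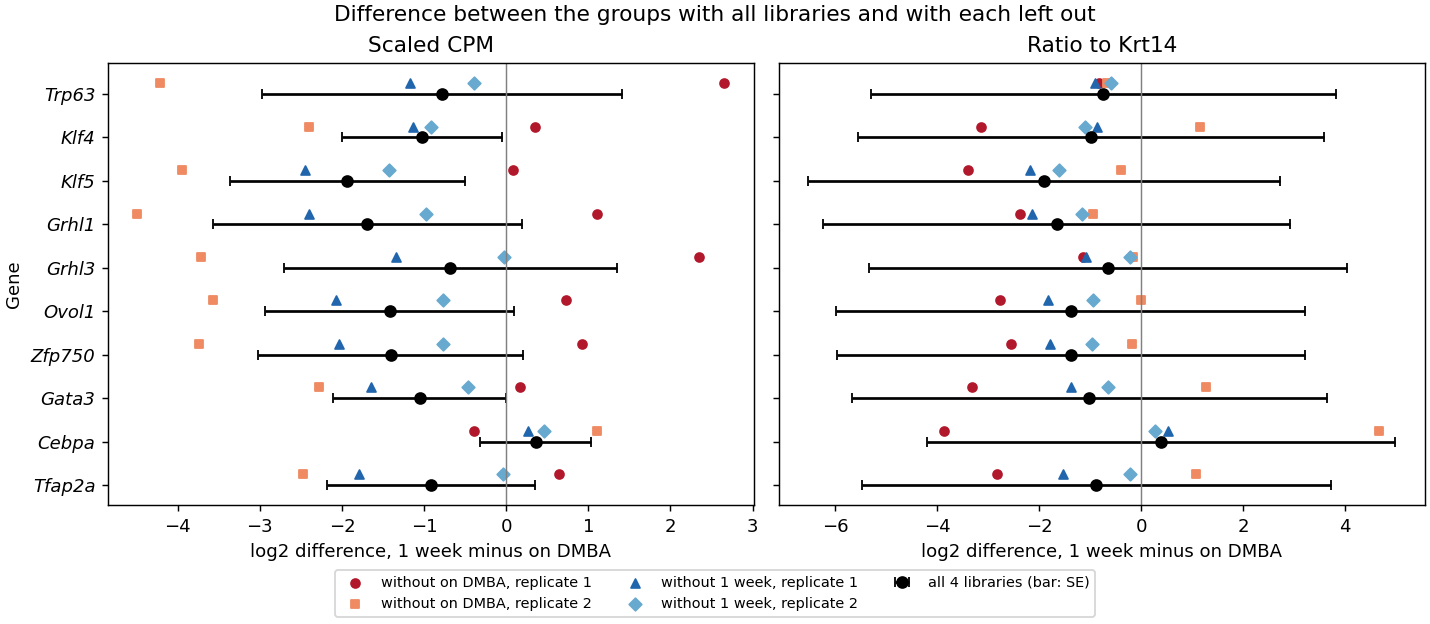
Log2 difference, 1 week minus on DMBA, of each factor in scaled CPM (left) and over Krt14 (right), with all 4 libraries (black, bar: SE) and with each library left out (coloured points). Leaving out either on-DMBA library moves the points to opposite sides in scaled CPM, while the Trp63 ratio stays between -0.91 and -0.58.

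Other genes of the epidermal programme were read from fixed lists. Of 28 tested transcription factors of the epidermis beside the 10, limma called 0 (1 at an unadjusted p under 0.05). The groups did not overlap at 3 higher and 4 lower (14% and 9.14% of all genes tested), and the median log2 difference was -0.45 against -0.02 over all genes. Prdm1, which encodes the repressor Blimp1, was at 3.21 and 23.0 in the on-DMBA mice and 66.9 and 71.2 in the 1-week mice, and Ets1 was at 41.4 and 146 in the on-DMBA mice and 173 and 356 in the 1-week mice. Cebpb, the partner of Cebpa, was at 148 and 336 in the on-DMBA mice and 442 and 371 in the 1-week mice. In these 3 genes of the list both 1-week libraries were above both on-DMBA libraries. Grhl2, picked after its values were seen, was at 139 and 1.44 in the on-DMBA mice and 10.9 and 11.6 in the 1-week mice, and it stayed within 1.72-fold over Krt14.

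Most genes known to depend on p63 were highest and lowest in the same libraries as Trp63. Of the 20 measured, 19 were highest in on-DMBA replicate 1 and 18 lowest in on-DMBA replicate 2 (41.7% and 23.2% of all genes tested). Limma called 0 of them (0 at an unadjusted p under 0.05), with a median log2 difference of -0.17. All 16 keratinocyte markers, which share genes such as Krt14 and Krt5 with the p63 list, had the same highest and lowest library. Fras1, a basement membrane gene of this list, was at 38.6 and 5.03 in the on-DMBA mice and 10.5 and 6.70 in the 1-week mice, and Itga6 was at 976 and 206 in the on-DMBA mice and 269.6 and 292 in the 1-week mice. Of the 14 epithelial identity genes under Grhl and Ovol factors, 11 were highest in on-DMBA replicate 1, with a median log2 difference of -0.67, 0 called and 2 at an unadjusted p under 0.05 in limma. E-cadherin's gene Cdh1 was at 459 and 5.74 in the on-DMBA mice and 30.9 and 44.2 in the 1-week mice. Spint1, a matriptase inhibitor, was at 61.5 and 12.6 in the on-DMBA mice and 106 and 258 in the 1-week mice, and Cldn1, which encodes claudin 1 of tight junctions, was at 33.1 and 116 in the on-DMBA mice and 5.16 and 6.85 in the 1-week mice. Of 15 measured barrier genes of late differentiation, 14 were highest in on-DMBA replicate 1, with 0 of the 14 tested called (0 unadjusted) in limma and a median log2 difference of -0.77. Krt1, a keratin of differentiating cells, was at 878 and 4.13 in the on-DMBA mice and 9.22 and 5.71 in the 1-week mice, and its partner Krt10 was at 2026 and 3.23 in the on-DMBA mice and 3.59 and 5.42 in the 1-week mice.

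The EMT factors, some of which Ovol proteins are known to repress, ran the other way, apart from Snai2. The exception, Snai2, was at 44.3 and 4.49 in the on-DMBA mice and 8.28 and 10.6 in the 1-week mice. Of the 7, 6 were lowest in on-DMBA replicate 1, limma called 0 (2 at an unadjusted p under 0.05), and the median log2 difference was 2.99. Of all 15419 genes tested, 5782 were lowest in that library and 352 were higher at an unadjusted p under 0.05, and the median was -0.02. Twist2 was at 0.83 and 4.31 in the on-DMBA mice and 58.9 and 28.5 in the 1-week mice, and Twist1 was at 1.66 and 15.6 in the on-DMBA mice and 60.5 and 36.5 in the 1-week mice. Zeb2 was at 2.14 and 357 in the on-DMBA mice and 207 and 287 in the 1-week mice. In on-DMBA replicate 2 Twist1 and Twist2 were below both 1-week libraries and Zeb2 was above them. The summed fibroblast markers were likewise below both 1-week sums there and the summed myeloid markers above them, and the part of these cells was not tested.

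**Figure D5:**
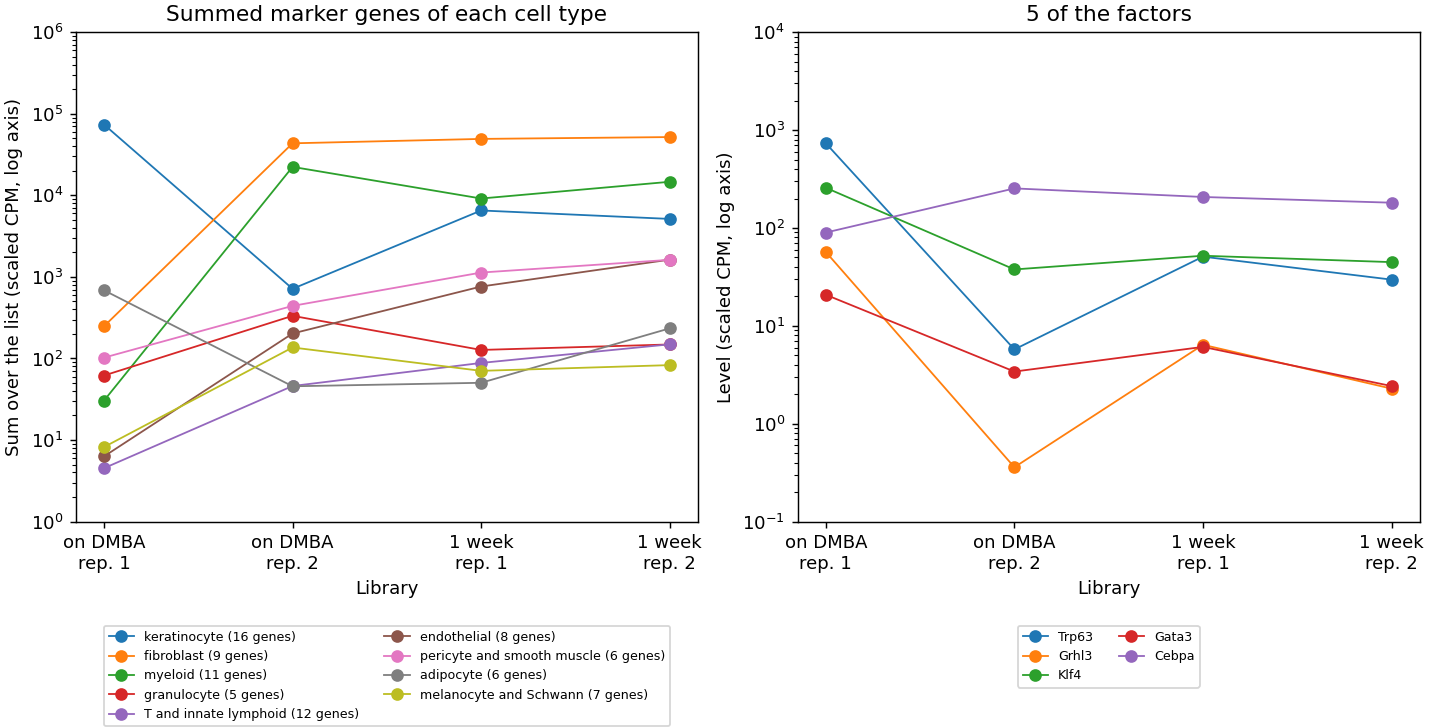
Left, summed scaled CPM (log axis) of the marker genes of 9 cell types in each library; right, 5 of the factors on the same kind of axis. Trp63, Grhl3, Klf4 and Gata3 are highest where keratinocyte markers sum to 73926, and Cebpa is lowest there.

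The remaining cell type markers were measured beside these. The 8 endothelial markers summed to 6.29 and 202 in the on-DMBA mice and 763 and 1629 in the 1-week mice, and the 6 pericyte and smooth muscle markers to 102 and 441 in the on-DMBA mice and 1131 and 1620 in the 1-week mice. The 7 melanocyte and Schwann markers summed to 8.19 and 136 in the on-DMBA mice and 70.5 and 82.9 in the 1-week mice, and the 6 adipocyte markers to 686 and 45.6 in the on-DMBA mice and 50.3 and 234 in the 1-week mice, most of it Fabp4. Adipoq, a defining adipocyte gene picked after its values were seen, was at 0.24 and 0.72 in the on-DMBA mice and 1.09 and 0.43 in the 1-week mice. No marker in the table was at 0 in on-DMBA replicate 1.

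The genes nearest to each factor in profile were found by the Euclidean distance of log2 levels, each centred on its mean over the 4 libraries. Nearest to Trp63 was Fgfbp1 (distance 0.24), at 308 and 2.33 in the on-DMBA mice and 26.6 and 13.0 in the 1-week mice. Nearest to Grhl1 was Tgm3 (0.06), at 98.4 and 1.44 in the on-DMBA mice and 6.72 and 2.14 in the 1-week mice. Pitpnm3 was nearest to both Ovol1 (0.27) and Zfp750 (0.17), which were each among the other's 3 nearest genes at a distance of 0.27. For Grhl3 the 3 nearest were Endou (0.40), Pkp1 (0.48) and Col17a1 (0.54). The nearest gene was Kctd15 for Klf4 (0.08), Vsnl1 for Klf5 (0.21), Vangl2 for Gata3 (0.12), Il17re for Tfap2a (0.09) and Zbtb34 for Cebpa (0.07). With 4 libraries, of which on-DMBA replicate 1 sets most of the shape, these distances are a description.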

How the data were processed

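RNA from sorted tumour cells of 4 mice, 2 per group, was depleted of ribosomal RNA and sequenced with a strand-keeping protocol, per the labels' protocols. Listed in the submitters' processing notes, without role or order, are mm9, TopHat2 2.1, edgeR 3.2.3, CASAVA 1.8.2 and HTSeq. The authors deposited 1 table of signal per gene, called CPM. Its columns sum to 867697 to 1149287, so the signal is relative to a scaled library size. All values (100%) were whole multiples of a step per library at a tolerance of 0.01 reads, and whole reads were recovered (0.119 to 0.179 scaled CPM per read). Intervals cover counting error only.

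The 15419 genes that reached 1 scaled CPM in 2 or more libraries were tested in R 4.3.3 with limma 3.58.1 (eBayes with a trend) on log2(scaled CPM + 0.5), two-sided, Benjamini-Hochberg adjusted over all genes, threshold 0.05. Fold changes are on that scale and understate those of low genes. The ratio fit subtracted the same value of Krt14. edgeR 4.0.16 and DESeq2 1.42.0 were run on whole reads as alternatives. The scripts were checked on simulated data, which give no value printed here. Genes were named by rule: the 10 factors, 5 epithelial reference genes, from each list the most abundant member and the 2 of smallest p, from each marker list the most abundant member, Cd3e, Lyz2 and Ptprc, and the 3 nearest genes in profile with a mean of at least 5. Some are not described. Members and lists were chosen with earlier results of these data known. Promoter sequences are RefSeq's.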

Additional observations from a re-analysis of the deposited data

How the results depend on the processing

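In scaled CPM, the 10 factors kept their direction and 0 were called under pseudocounts of 0.1 and 1, a filter of 5 and none, median ratio and quantile scaling, eBayes without the trend, edgeR, DESeq2 and the replicate block (adjusted p from 0.987 to 1 over these 99 values, Klf5 not passing the filter of 5). The sizes moved more in the models of whole reads: for the 9 factors below 0, from -0.68 to -1.94 in limma, from -1.32 to -3.32 in edgeR and from -1.35 to -3.36 in DESeq2. Over all genes, where 0 were called (352 higher and 30 lower unadjusted), edgeR called 0, DESeq2 19 (16 higher, 3 lower), and the fit with the replicate block 288 (285 higher, 3 lower). The replicate numbers mark different mice, and same-numbered libraries did not deviate together (correlation 0.015 across genes).

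Leaving out each library in turn gave 0 to 3761 called genes and 0 to 9 called factors, and over Krt14 0 to 14650 genes and 0 to 8 factors. The log2 differences in scaled CPM then ranged from -4.22 to 2.66 for Trp63, -2.40 to 0.35 for Klf4, -3.95 to 0.081 for Klf5, -4.49 to 1.11 for Grhl1, -3.71 to 2.35 for Grhl3, -3.56 to 0.73 for Ovol1, -3.74 to 0.93 for Zfp750, -2.28 to 0.17 for Gata3, -0.39 to 1.11 for Cebpa and -2.48 to 0.65 for Tfap2a. Over Krt14 they ranged from -3.13 to 1.15 for Klf4, -3.32 to 1.28 for Gata3, -3.87 to 4.66 for Cebpa and -2.83 to 1.08 for Tfap2a, and the other 6 stayed below 0. Over Krt14, no factor was called under the other alternatives, denominators Krt5, Cdh3 and the mean of 5 epithelial genes included. Cebpa reversed in edgeR (-2.87, the cause was not tested). Its mean ratios, not on the log scale that limma used, were 629 on DMBA and 85.9 at 1 week. There were 2 mice per group, and 2 to 32 reads behind 8 of the factors in on-DMBA replicate 2 (all but Klf4 and Cebpa). Small differences were thus not detectable. Large ones were not called either, up to -3.36 for Grhl1 in DESeq2, so the lack of a call does not exclude a large difference.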
